A study of Mus musculus with 1 sample.

Results

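The 8 genes described here write, copy or remove DNA methylation: *Dnmt1*, *Uhrf1*, *Dnmt3a*, *Dnmt3b*, *Dnmt3l*, *Tet1*, *Tet2* and *Tet3*. They were taken by symbol from the 22631 features of 1 single-cell library of mouse fetal testes, and all 8 were found in it. Methylated cytosines in CpG dinucleotides are copied onto the new DNA strand at each replication by DNMT1, which UHRF1 brings to the half-methylated site. New marks are set by DNMT3A and DNMT3B, which DNMT3L, itself without catalytic activity, assists in germ cells, and TET enzymes oxidize methylcytosine on the way to its removal. Fetal male germ cells (GCs) lose most of their methylation while they divide and regain it after they enter mitotic arrest.

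The library is labelled wild type (WT) and E14.5, and held testis cells of 12 pooled controls. The study's methods describe controls that carried the Nr5a1 L2/L2 alleles but lacked the Cre transgene deleting *Nr5a1* in Sertoli cells (SCs), and name both E13.5 and E14.5, so the label and the methods differ. The mutant library was not analysed here. With 1 library and no replicate no test was made, and every interval below is an exact 95% interval that covers counting error only.

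Transcripts were counted near their 3' ends by unique molecular indices (UMIs), each marking 1 captured molecule. The library held 72595083 UMIs in 5421 distinct barcodes, with 501 to 143197 UMIs per barcode. After removal of barcodes with fewer than 200 genes, doublets and outliers, 3817 cells were kept and fell into 15 clusters made without the 8 genes. Clusters were named from marker lists and are called "X-like". The germ-like cluster was checked first: its 6 markers, *Ddx4*, *Dazl*, *Dnd1*, *Pou5f1*, *Dppa5a* and *Mael*, were all detected, with a mean log2 ratio of 6.06 against the other cells.

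Levels are UMIs of a gene per 1000000 UMIs of a group (CPM), from cells with at least 5000 UMIs. This gave 240 germ-like cells, of which the median cell had 36028 UMIs. The outlier limits were set over all cells together. With a looser limit 295 germ-like cells were kept, and with no outlier filter 296. The 3078 somatic cells came from 8 named classes and were parted by cell-cycle scores, made on 5000 UMIs per cell. A G1 call put 1749 of them among the non-dividing cells, with a median of 10496 UMIs, and an S or G2/M call put 1329 among the dividing cells, with a median of 13758. A gene is said to be higher or lower where the levels differed at least 2-fold, their intervals did not overlap, and 10 or more UMIs were counted. Because long and short transcripts are primed and counted differently, levels are compared between cells and not between genes.

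On GRCm38, the assembly also called mm10, the GENCODE annotation places *Dnmt1* at chr9:20907209-20959888 on the minus strand and *Uhrf1* at chr17:56303321-56323486 on the plus strand. *Dnmt3a* is at chr12:3806007-3914443, *Dnmt3b* at chr2:153649450-153687730 and *Dnmt3l* at chr10:78041947-78063622, all on the plus strand. *Tet1*, at chr10:62804570-62908996, *Tet2*, at chr3:133463679-133545139, and *Tet3*, at chr6:83362373-83459084, are on the minus strand. None overlaps another gene of its own strand, but 5 overlap a gene of the other strand, among them *Dnmt3l* with *Aire*.

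Promoter windows of RefSeq on GRCm38.p6, from 250 bases before a start to 50 bases after it, are shown for the pair of genes that followed division and for the gene counted almost only in germ-like cells. Letters of an E2F site (TTTCCCGC, TTTCGCGC, TTTGCCGC or TTTGGCGC, on either strand) are in capitals.
Dnmt1, chr9:20952574-20952873, minus strand: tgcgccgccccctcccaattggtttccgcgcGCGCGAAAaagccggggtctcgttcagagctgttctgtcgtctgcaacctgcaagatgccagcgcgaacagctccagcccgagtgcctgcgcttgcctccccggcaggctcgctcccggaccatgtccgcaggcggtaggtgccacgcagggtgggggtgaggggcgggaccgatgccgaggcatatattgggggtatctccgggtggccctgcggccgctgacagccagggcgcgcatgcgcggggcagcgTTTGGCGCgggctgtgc
Uhrf1, chr17:56304063-56304362, plus strand: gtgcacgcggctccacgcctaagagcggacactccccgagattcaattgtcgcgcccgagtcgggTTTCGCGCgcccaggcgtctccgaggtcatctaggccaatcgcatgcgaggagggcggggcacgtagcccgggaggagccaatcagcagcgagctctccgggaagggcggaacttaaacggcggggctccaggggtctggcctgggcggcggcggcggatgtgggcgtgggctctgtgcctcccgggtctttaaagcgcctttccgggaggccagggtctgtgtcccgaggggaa
Dnmt3l, chr10:78042037-78042336, plus strand: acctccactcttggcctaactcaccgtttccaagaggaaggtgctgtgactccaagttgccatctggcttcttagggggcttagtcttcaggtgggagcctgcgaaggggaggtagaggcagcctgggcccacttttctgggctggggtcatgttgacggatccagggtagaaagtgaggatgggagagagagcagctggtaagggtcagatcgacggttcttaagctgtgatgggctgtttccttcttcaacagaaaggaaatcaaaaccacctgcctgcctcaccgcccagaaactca
These letters occurred in 2.28% of the 32544 windows of all genes, and in 2 of the 15 windows of the 8 genes, those printed for *Dnmt1* and *Uhrf1*. Both were printed because they hold these letters: RefSeq gives 3 starts for *Dnmt1* and 2 for *Uhrf1*, and the windows nearest a principal start of either gene held 12 CpG dinucleotides and no such letters. The printed start of *Uhrf1* lay 35 bases from a principal start, against 16 for the other, and that of *Dnmt1* lay 356 bases downstream of one. The whole printed *Dnmt1* window, with both stretches in capitals, therefore lies downstream of that principal start. The printed windows held 33 CpG dinucleotides each, against a median of 7 over all windows. The *Dnmt3l* window held 6 and no such letters. It lies at a principal start, as does the window at chr10:78049592-78049891, which is not printed. Also searched were TTTGAA or TTCGAA (2 of the 15 windows, 19.1% of all), CCAAT (5 of the 15, 37.4%) and CACGTG (2 of the 15, 7.17%), and no E2F match overlapped one of these. A match describes the sequence and is not evidence of binding. Because the reads mark 3' ends, which start was in use in these cells was not measured.

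The maintenance pair, *Dnmt1* and *Uhrf1*, separated dividing from non-dividing somatic cells. *Dnmt1*, the maintenance methyltransferase, was counted at 99.5 CPM (95.2 to 104.0) in dividing and 32.0 CPM (29.6 to 34.5) in non-dividing somatic cells, 3.11-fold higher in the former (2.85 to 3.40). *Uhrf1*, its cofactor, rose more steeply, from 9.50 CPM (8.23 to 10.9) to 77.4 CPM (73.6 to 81.4), a ratio of 8.15 (7.03 to 9.48). Both were thus higher in dividing cells, as 4.89% of the 14439 genes tested were. None of the 7 genes tested was lower there, as 3.23% of all genes were. *Dnmt3l*, with 1 and 3 UMIs, had too few to be tested.

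**Figure D1:**
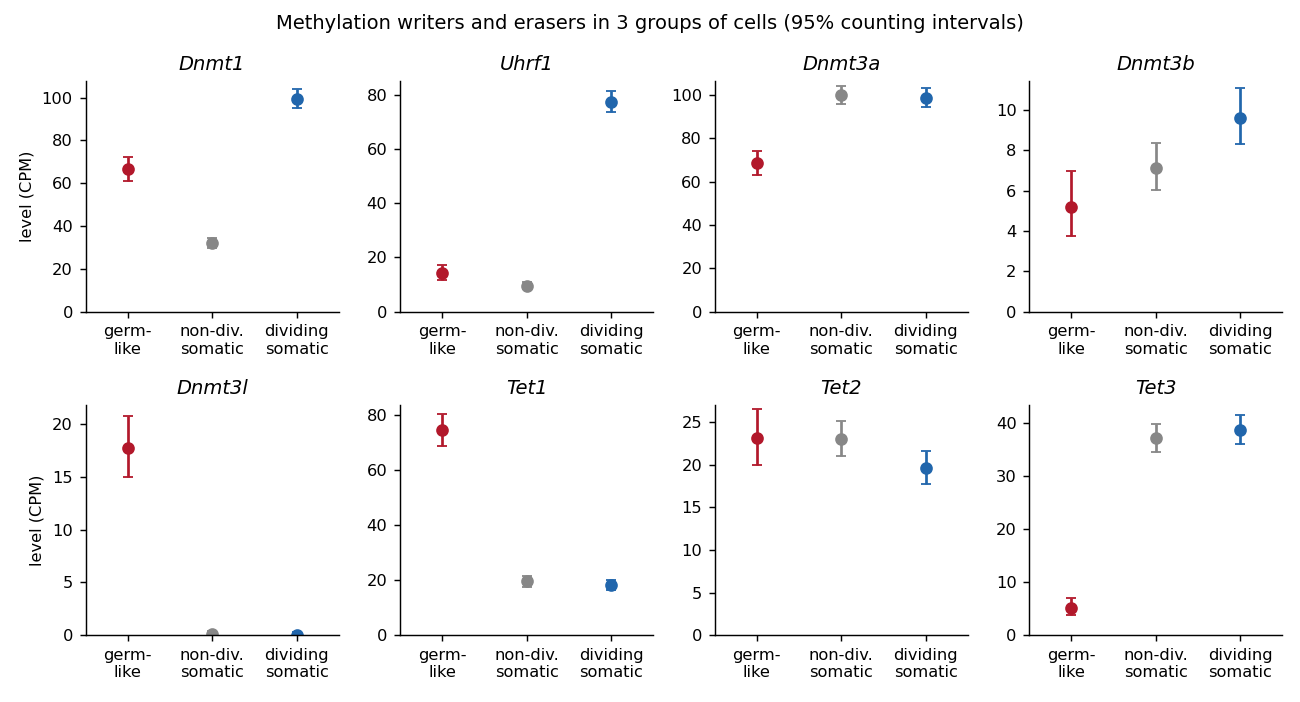
Levels of the 8 genes in 240 germ-like, 1749 non-dividing somatic and 1329 dividing somatic cells, as CPM on linear axes that start at 0; points are levels of summed UMIs and bars exact 95% counting intervals. *Dnmt1* and *Uhrf1* are highest in dividing somatic cells, *Dnmt3l* and *Tet1* in germ-like cells, and *Tet3* is lowest in germ-like cells.

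In germ-like cells the pair came apart. *Dnmt1* stood at 66.6 CPM (61.2 to 72.3), 2.08-fold higher than in non-dividing somatic cells (1.86 to 2.33) and at 0.669 of the level of dividing ones, which is within the 2-fold limit. *Uhrf1* stood at 14.3 CPM (11.8 to 17.0), at 0.184 of the level of dividing somatic cells (0.152 to 0.222) and 1.5 times that of non-dividing cells (1.19 to 1.89). By CPM, germ-like *Dnmt1* thus lay between the levels of both somatic groups, and germ-like *Uhrf1* near the lower one. Of the UMIs of both genes together, *Uhrf1* made up 17.6% (14.9 to 20.7) in germ-like, 22.9% (20.2 to 25.8) in non-dividing and 43.8% (42.1 to 45.4) in dividing somatic cells. The call of *Dnmt1* ended at 1.95-fold both when scores were made on 3000 UMIs per cell and when somatic classes had equal weight, and *Uhrf1* was called higher, 3.25-fold, against the lowest tercile of somatic cells by division genes.

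CPM compares shares of the RNA, and germ-like cells yielded more UMIs each. Counted per cell, in a way chosen after the data were seen, 7 of the 8 genes were higher in germ-like than in non-dividing somatic cells, where 52.1% of all genes were higher and the median log2 ratio over all genes was 1.19. *Tet3* was still lower, as 15.5% of genes were, with 0.183 against 0.448 UMIs per cell. *Dnmt1* was at 2.35 UMIs per germ-like cell, 0.387 per non-dividing and 1.504 per dividing somatic cell. On this scale germ-like *Dnmt1* stood above both somatic groups, not between them. *Uhrf1* was at 0.504, 0.115 and 1.17 UMIs per cell, so it stayed lower in germ-like than in dividing somatic cells on both scales. *Dnmt3a* turned direction with the scale: lower in germ-like cells by CPM, though within 2-fold, it was at 2.42 UMIs per germ-like cell against 1.21 and 1.49 per non-dividing and dividing somatic cell. *Dnmt3b* did so as well, at 0.183 against 0.0863 and 0.145 UMIs per cell.

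At equal depth, shares of cells told the same order as CPM. After each cell was thinned to 5000 UMIs, a *Uhrf1* UMI was seen in 10.4% of germ-like, 3.72% of non-dividing and 30.5% of dividing somatic cells. Unthinned, the shares were 36.7%, 9.55% and 58.5%, with the deeper germ-like cells ahead of the non-dividing ones by more. *Dnmt1* was seen after thinning in 31.3%, 13.6% and 35.1% of the same cells. Unthinned, a *Dnmt1* UMI was read in 85.0% of germ-like cells, a larger share than in dividing somatic cells. How much of these shares came from free RNA was not measured.

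The pattern of the somatic cells held within their classes. In each of the 6 classes with at least 20 cells on both sides, *Dnmt1* was higher in dividing cells, 2.10-fold to 5.01-fold. *Uhrf1* was higher in 5 of the 6, with ratios from 3.07 to 16.7, and missed the call only in perivascular-like cells, where 27 and 4 UMIs were counted. In Sertoli-like cells, the supporting cells of the testis cords, 370 dividing cells held *Uhrf1* at 88.9 CPM and 470 non-dividing cells at 9.33 CPM. Of the 6 classes, Leydig-like cells, which make androgens, had the lowest levels in G1, 16.4 CPM of *Dnmt1* and 3.28 CPM of *Uhrf1*. Taken as 1 class, they also had the steepest ratios. This class joins a cluster of 127 cells led by steroidogenic genes and one of 181 cells led by *Nppc* and *Vsnl1*, with no Leydig marker among its 10 leading genes. In G1 the former held *Dnmt1* at 14.2 CPM and *Uhrf1* at 0.969 CPM, and the latter 21.0 and 8.13 CPM. Of the 64 dividing Leydig-like cells, 62 were of the latter cluster, with 85.6 CPM of *Dnmt1* and 57.7 CPM of *Uhrf1*. Of the 241 cells in G1, 123 were of the steroidogenic cluster, so the ratios of this class mix phase with cluster. Taking all phases together, germ-like *Uhrf1* was lower than in 6 of the 8 somatic classes, and only Leydig-like cells had less, 12.7 CPM, with an overlapping interval.

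**Figure D2:**
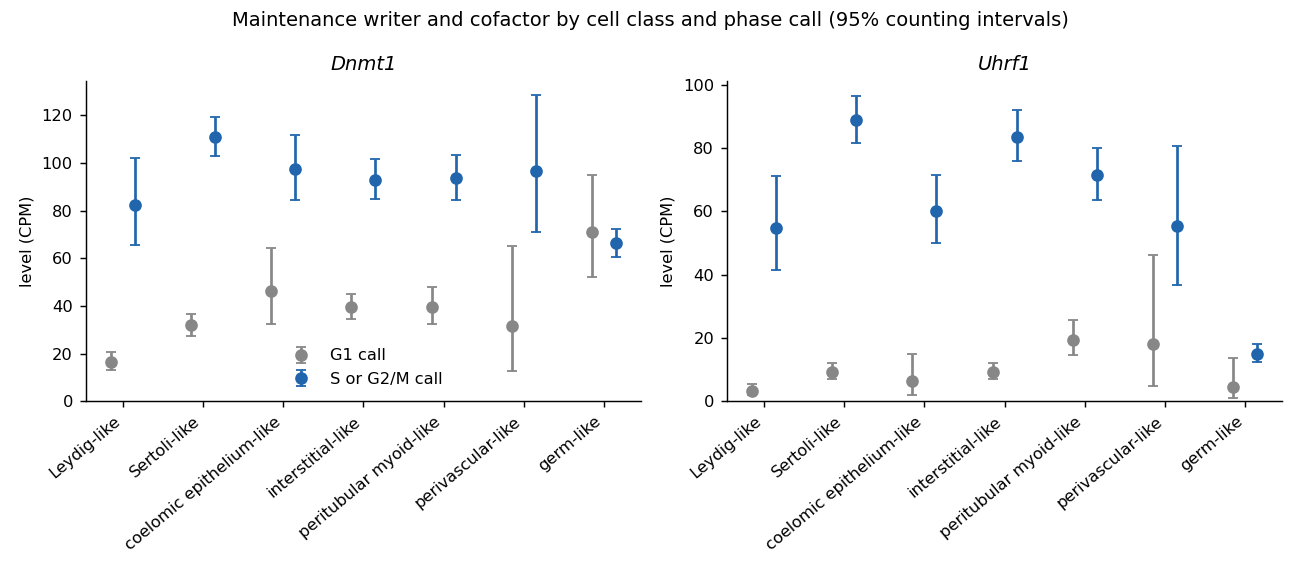
Levels (CPM, axes from 0) of *Dnmt1* and *Uhrf1* in cells with a G1 call and with an S or G2/M call, for 6 somatic classes and germ-like cells; bars are exact 95% counting intervals. In all 6 somatic classes the S or G2/M point is the higher one for both genes, whereas the germ-like points for *Dnmt1* overlap and those for *Uhrf1* stay under 20 CPM.

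Within the dividing somatic cells both genes stood highest in S phase. *Dnmt1* was counted at 123.9 CPM in the 671 cells called S and 78.3 CPM in the 658 called G2/M, and *Uhrf1* at 110.5 and 48.6 CPM. The intervals did not overlap for either gene. Within the 5 classes with at least 20 cells of each call, *Uhrf1* was above its G2/M level in S without overlap in 5, and *Dnmt1* in 3. For *Dnmt1* the intervals overlapped in Leydig-like and in coelomic epithelium-like cells, which stood at 101.6 CPM in S and 94.5 CPM in G2/M. In interstitial-like cells, by contrast, *Dnmt1* was at 129.8 CPM in S but 34.0 CPM (26.3 to 43.2) in G2/M, an interval that overlaps that of their G1 cells at 39.5 CPM. An unnamed cluster nearest to interstitial-like cells, with 202 S or G2/M cells and *Dnmt1* at 137.5 CPM, was left out of these values. Its part in the low G2/M level was not tested. When somatic cells were instead ordered into 5 equal bins by the share of their UMIs in S and G2/M genes, *Uhrf1* went from 2.78 CPM in the lowest bin over 7.15, 24.5 and 93.3 to 67.9 CPM in the highest. *Dnmt1* went from 21.3 CPM in the lowest bin to 104.5 in the fourth and 98.9 in the fifth. *Uhrf1* therefore peaked in bin 4, counted from the lowest. The *Dnmt1* intervals of bins 4 (97.9 to 111.5) and 5 (92.9 to 105.2) overlapped. Of the division genes kept out of the scores, *Mcm3*, a replication gene (177.6 CPM), and *Cdt1* (60.1 CPM) were also highest in bin 4. *Tk1* (106.0 CPM, against 77.9 in bin 4), *Plk1*, a mitosis gene (110.3 CPM), *Ccna2*, *Ccnb1*, *Prc1* and *Kif4* were highest in bin 5.

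Phase calls of germ-like cells need care. The scores called 204 of the 240 cells G2/M, 16 S and 20 G1, and 53 cells lay within 0.05 of the limit of a call, as did 302 of the 3078 somatic cells. Of 8 division genes kept out of the scores, 5 were lower in germ-like than in dividing somatic cells, among them *Tk1*, needed for thymidine supply, with 4.48 against 88.3 CPM, and *Plk1* with 7.66 against 61.3 CPM. Yet 6 of the 8 were higher in germ-like than in non-dividing somatic cells, led by *Ccnb1*, with 153.9 against 3.03 CPM. By their calls, germ-like cells in S or G2/M and in G1 gave no call for any of the 8 genes, where 0.854% of the 11586 genes tested were higher and 0.388% lower. *Dnmt1* stood at 66.2 and 71.1 CPM, and *Uhrf1*, with 3 UMIs in the G1 cells, at 15.1 and 4.64 CPM, a ratio of 3.25 (1.08 to 16.0) whose levels overlapped. *Uhrf1* was called higher when outliers or doublets were kept, when 3000 UMIs per cell were used or when germ-like cells were scored by themselves.

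The 20 germ-like cells called G1 were also set against non-dividing somatic cells, as a comparison at one phase call. The shared call did not match their division RNA. S and G2/M genes made up 0.437% of the UMIs of an average germ-like G1 cell and 0.226% of a non-dividing somatic cell. Of the 8 held-out division genes 3 were higher in the germ-like G1 cells, with a median log2 ratio of 2.37 against -0.55 over all genes. *Dnmt1* (2.22-fold), *Dnmt3l* and *Tet1* (3.31-fold) were higher, as 14.4% of 13815 genes were, and *Tet3*, with 2 UMIs, was lower, as were 23.1%. The same 4 genes were called, in the same directions, with all germ-like cells. *Dnmt3a* (0.913), *Dnmt3b* (1.73) and *Tet2* (1.21) were not called. *Uhrf1*, with 3 UMIs, was at 0.488 of the level (0.0998 to 1.45), not called, against 1.5 times with all germ-like cells. With no outlier filter *Uhrf1* was called lower (0.282), whereas terciles by division genes gave 1.97, not called. With Sertoli-like cells alone *Tet2* was called higher, 2.59-fold. Counted per cell, 6 genes were higher and *Tet3* lower, where 38.9% of genes were higher and 7.36% lower. The call of *Dnmt1* ended under 6 alternatives, which gave 1.47-fold to 1.91-fold: both looser outlier limits, no doublet removal, a doubled doublet rate, 3000 UMIs per cell and scores made for germ-like cells by themselves.

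Ordered by division genes, germ-like cells did differ in the 8 genes. In the highest against the lowest tercile by share of UMIs in S and G2/M genes, *Uhrf1* was 2.63-fold (22.6 against 8.62 CPM) and *Tet1* 2.33-fold higher (112.2 against 48.1 CPM), as 3.20% of 10934 genes were. *Dnmt3a*, at 40.8 against 83.2 CPM, and *Dnmt3l*, at 7.66 against 21.9 CPM, were lower, as 2.32% of genes were. *Dnmt1* missed the 2-fold limit at 95.1 against 50.4 CPM, without overlap of the intervals. Germ-like cells richer in division transcripts thus held more *Uhrf1* and *Tet1* and less of the de novo writer and its cofactor. *Dnmt1* reached the level of dividing somatic cells in the highest tercile, but *Uhrf1* did not.

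**Figure D3:**
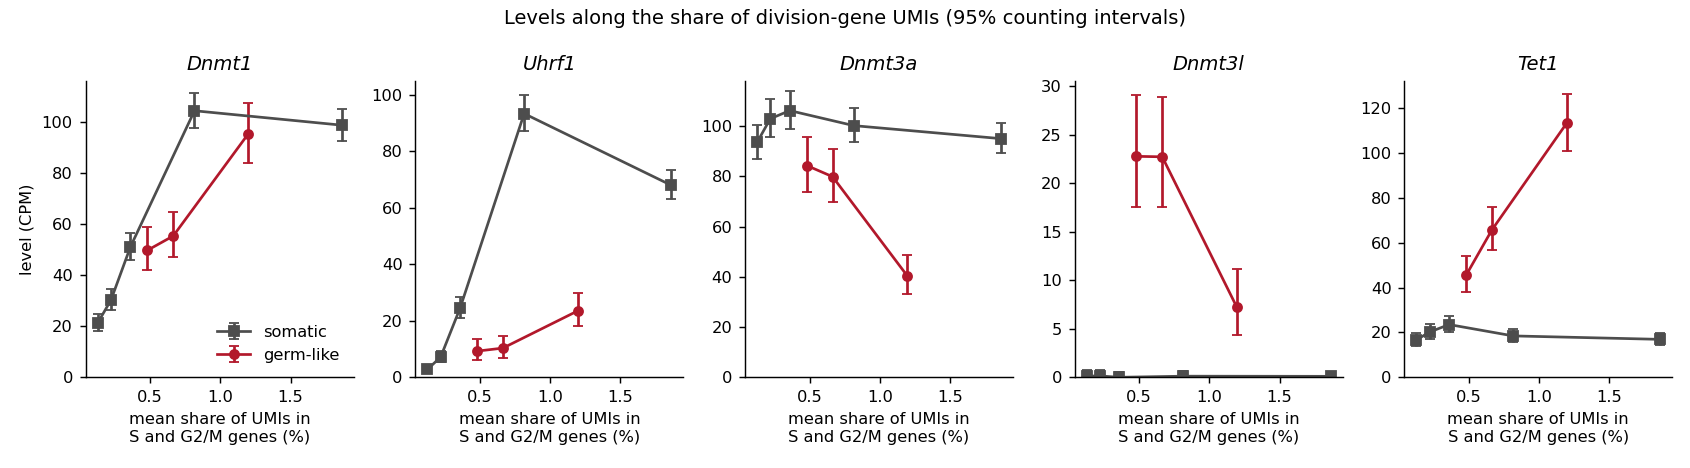
Levels (CPM, axes from 0) of 5 of the genes against the mean share of UMIs in S and G2/M genes, in 5 bins of somatic cells (squares, 615 or 616 cells each) and 3 bins of germ-like cells (circles, 80 cells each); bars are exact 95% counting intervals. In somatic cells *Uhrf1* is highest in bin 4, at 93.3 CPM. *Dnmt1* is at 104.5 CPM there, with an interval that overlaps that of bin 5. In germ-like cells *Dnmt1* is highest in the highest bin, where *Dnmt3a* and *Dnmt3l* drop while *Tet1* rises.

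Among the de novo genes, *Dnmt3l* set germ-like cells apart. It was counted with 150 UMIs in germ-like cells, 17.7 CPM (14.96 to 20.7), with 3 UMIs in non-dividing and with 1 UMI in dividing somatic cells. The ratios were 125 (41.8 to 611) and 355 (62.8 to 14114), wide because so few somatic UMIs were counted. In germ-like cells 3 genes were higher than in non-dividing somatic cells, *Dnmt3l*, *Tet1* and *Dnmt1*, where 19.6% of 14544 genes were higher, and against dividing somatic cells 2 were, *Dnmt3l* and *Tet1*, where 17.0% of 14514 genes were. A *Dnmt3l* UMI was read in 70 germ-like cells, 29.2% of them, and in 4 of the 3078 somatic cells, 0.130%, of which 3 were Sertoli-like. After thinning to 5000 UMIs, the germ-like share was 8.33%. *Dnmt3l* was higher in germ-like cells than in each of the 8 somatic classes, and no *Dnmt3l* UMI was found in 6 of them.

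*Dnmt3a*, the main de novo methyltransferase, was called neither between dividing and non-dividing somatic cells nor between germ-like cells and either by CPM. Among germ-like cells, however, it was lower in the highest than in the lowest tercile by division genes, at 40.8 against 83.2 CPM. Its level was 98.4 CPM (94.2 to 102.9) in dividing and 99.9 CPM (95.7 to 104.3) in non-dividing somatic cells. Germ-like cells held less, 68.5 CPM (63.0 to 74.3), 0.685 of the level of non-dividing somatic cells (0.624 to 0.752), with no overlap of the intervals but within 2-fold. Among classes it was highest in perivascular-like (124.4 CPM) and interstitial-like cells (118.3 CPM), whose intervals overlapped, and lowest in immune-like cells (37.2 CPM).

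*Dnmt3b*, the other de novo methyltransferase, was sparse. It was counted at 5.19 CPM (3.77 to 6.96) in germ-like, 7.14 CPM (6.05 to 8.37) in non-dividing and 9.61 CPM (8.30 to 11.1) in dividing somatic cells, with no call between them. Endothelial-like cells stood out from the other classes with 30.7 CPM (19.3 to 46.5), ahead of Sertoli-like cells with 12.4 CPM (10.6 to 14.5). The endothelial-like value rests on 22 UMIs in 42 cells. In G1 alone they were at 15.2 CPM (5.57 to 33.0), with 6 UMIs, overlapping Sertoli-like cells in G1 at 12.8 CPM (10.2 to 15.9). *Dnmt3c*, a close relative that could share reads with *Dnmt3b*, had 2 UMIs in germ-like cells, so the split of reads between them is uncertain.

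The erasers changed places between germ line and soma. *Tet1*, known for its expression in early germ cells, was counted at 74.6 CPM (68.9 to 80.6) in germ-like cells. It was 3.80-fold higher than in non-dividing somatic cells (3.35 to 4.31; 19.6 CPM) and 4.09-fold higher than in dividing ones (3.59 to 4.67; 18.2 CPM). *Tet3*, the eraser also known from the zygote, showed the reverse, with 5.19 CPM (3.77 to 6.96) in germ-like cells against 37.0 and 38.6 CPM in non-dividing and dividing somatic cells. Its ratios were 0.140 (0.101 to 0.190) and 0.134 (0.0967 to 0.182). It was lower against non-dividing somatic cells, as 33.6% of genes were, and together with *Uhrf1* lower against dividing ones, as 34.1% of genes were. *Tet2* was at 23.1 CPM in germ-like cells, 23.0 CPM in non-dividing and 19.6 CPM in dividing somatic cells, and its ratio to non-dividing cells was 1.01 (0.847 to 1.19).

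In every somatic class the direction was the same: *Tet1* was higher in germ-like cells than in 8 of 8, and *Tet3* lower than in 8 of 8. Somatic *Tet1* ran from 1.86 CPM in immune-like to 28.4 CPM in coelomic epithelium-like cells, and somatic *Tet3* from 21.8 CPM in Leydig-like to 53.9 CPM in immune-like cells. *Tet1* made up 72.5% of all Tet UMIs in germ-like cells (69.4 to 75.4), and 24.6% and 23.8% in non-dividing and dividing somatic cells. *Tet3* made up 5.04%, 46.5% and 50.6%. Sertoli-like cells were the large class with most *Tet3*, 68.4% of its Tet UMIs (65.2 to 71.4), and with little *Tet2*, 9.45 CPM against 29.9 CPM in interstitial-like cells. With Sertoli-like cells alone as the somatic cells, *Tet2* was higher in germ-like cells too, 2.15-fold against non-dividing and 2.83-fold against dividing ones, and *Dnmt3b* was lower against both. Because the 3 transcripts may be primed with different efficiency, these shares compare cells and do not rank the enzymes.

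**Figure D4:**
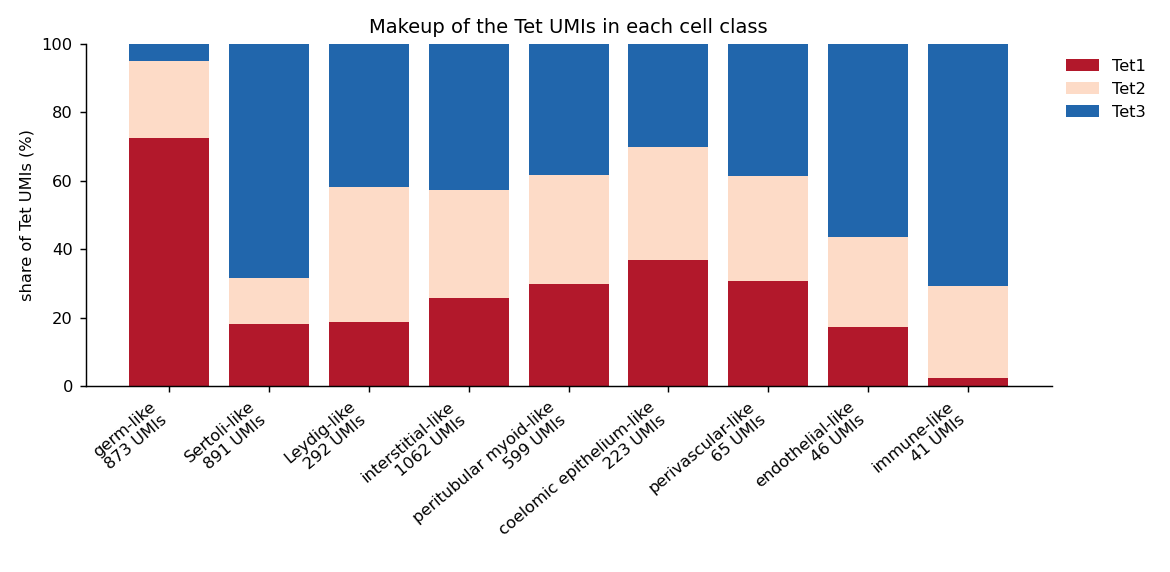
Share of *Tet1*, *Tet2* and *Tet3* among all Tet UMIs (%, stacked to 100) in germ-like cells and 8 somatic classes, with the number of UMIs under each bar. *Tet1* makes up 72.5% in germ-like cells and at most 36.8% in the somatic classes, and *Tet3* makes up 5.04% in germ-like cells and at least 30.04% elsewhere.

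*Dnmt3l*, *Tet1* and *Dnmt3a* varied more among germ-like cells than counting allows for. The variance of their UMIs was 2.90, 2.81 and 2.69 times that of a Poisson count at each cell's depth, against 1.01 to 1.67 for the other 5 genes. In somatic cells the value for *Dnmt3a* was 1.22 and for *Tet1* 1.13. Germ-like cells were therefore described further by their own *Dnmt3l* UMIs, a division chosen after the values had been seen. A *Dnmt3l* UMI was read in 70 cells, with a median of 38914 UMIs per cell, and none in the other 170, with a median of 34529. Germ-like cells averaged 0.625 *Dnmt3l* UMIs, so a cell without one can still hold its RNA. The division therefore does not set 2 kinds of cell apart.

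Cells with a *Dnmt3l* UMI held more *Dnmt3a* and less *Tet1*. *Dnmt3a* stood at 126.6 CPM (113.5 to 140.9) in them and 41.8 CPM (36.7 to 47.4) in the others, 3.03-fold higher (2.56 to 3.59), as 3.96% of 11586 genes were. In 69 of the 70 cells a *Dnmt3a* UMI was also read, against 106 of the 170. *Tet1* stood at 28.5 CPM (22.4 to 35.6) against 95.8 CPM (88.0 to 104.1), at 0.297 of the level (0.231 to 0.378), lower as were 4.27% of genes. At 28.5 CPM, *Tet1* in these cells was close to its level in coelomic epithelium-like cells, 28.4 CPM, the highest of the somatic classes. *Dnmt1*, at 45.7 against 76.2 CPM, did not reach the 2-fold limit, although the intervals did not overlap. *Uhrf1* (12.7 and 14.96 CPM), *Dnmt3b* (5.25 and 5.16), *Tet2* (28.1 and 20.8) and *Tet3* (5.62 and 4.99) had overlapping intervals.

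**Figure D5:**
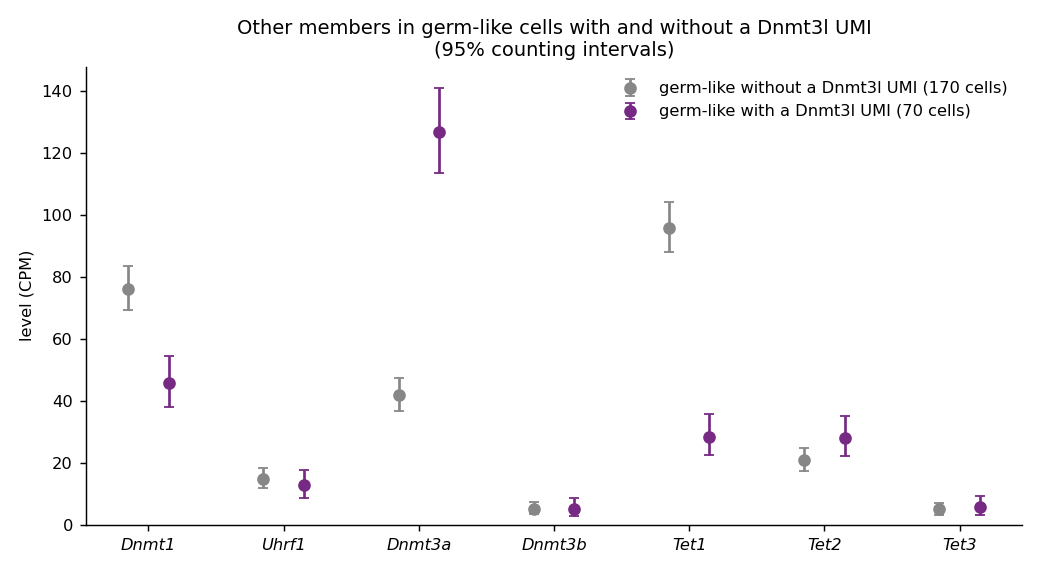
Levels (CPM, axis from 0) of the other 7 genes in 70 germ-like cells with a *Dnmt3l* UMI and 170 without one; bars are exact 95% counting intervals. *Dnmt3a* is higher and *Tet1* lower in the cells with a *Dnmt3l* UMI, *Dnmt1* is lower within 2-fold, and the other 4 genes overlap.

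Of 57 other genes of the methylation pathway tested in 6 lists, 2 were higher in cells with a *Dnmt3l* UMI. This was 3.51%, near the 3.96% of all genes that were higher. Another 5 were lower, 8.77%, against 4.27% of all genes. Both higher ones were among the 9 genes of de novo methylation and its chromatin cues: *Morc1*, needed for silencing of transposons in male germ cells, at 125.1 against 43.7 CPM, and *Spocd1*, which acts in piRNA-directed methylation, at 17.6 against 1.55 CPM. *Setd2*, which trimethylates lysine 36 of histone H3, was lower, at 17.2 against 38.0 CPM. *Hells*, a chromatin remodeler of the maintenance list, was lower as well, at 147.6 against 316.0 CPM. The other 3 were *Mthfd1*, *Cxxc5* and the glycosylase *Mbd4*. Outside the lists, and named after their values had been seen, *Piwil4*, the nuclear piRNA-binding protein of these cells, was 4.39-fold higher (93.7 against 21.3 CPM), and the proliferation marker *Mki67* was at 0.153 of the level (7.49 against 49.0 CPM). *Nanos2*, a marker of male germ cell fate, was at 74.6 and 61.0 CPM, and *Pou5f1* at 507.7 and 480.5 CPM, neither called. *Stra8*, a gene of meiotic entry, was lower, with 3 against 33 UMIs. None of the 8 held-out division genes was called, but their median log2 ratio was -0.76, against 0.01 over all genes, and S and G2/M genes made up 0.596% of the UMIs of an average cell with a *Dnmt3l* UMI and 0.856% of one without. Cells with a *Dnmt3l* UMI thus held less division RNA, and its part in the differences was not tested.

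Markers of other cell types were counted in the same cells. Of 7 erythroid markers, 5 of them with enough UMIs to be tested, 3 were higher in cells with a *Dnmt3l* UMI, where 1 cell held 1906 of 2293 hemoglobin UMIs. Without that cell none of the 3 was called, and the ratios of *Dnmt3a* (3.08) and *Tet1* (0.299) hardly moved. Of 7 endothelial markers only 2 could be tested, *Pecam1* and *Cldn5*, and both were lower in cells with a *Dnmt3l* UMI. The summed level of the list was 6.37 against 28.5 CPM, and the part of these markers in the result was not tested. Only 2 of 7 immune markers were tested, and 1, *Fcer1g*, was higher (summed 5.99 against 2.24 CPM). Among 6 perivascular markers 2 were tested and 1, *Notch3*, was lower (summed 18.0 against 31.1 CPM). Among 6 coelomic epithelium markers 2 were tested and 1, *Krt19*, was lower (summed 22.9 against 19.8 CPM). Among the 6 germ markers 1, *Mael*, was higher, with a summed level of all 6 at 3671 against 4182 CPM. The part of these markers was not tested either. No Sertoli, Leydig, interstitial, peritubular myoid or rete testis marker was called, and the summed level of 10 Sertoli markers was 34.8 and 38.5 CPM. Only 1 peritubular myoid and 1 rete testis marker had enough UMIs to be tested. When a UMI was asked for after thinning to 5000 UMIs per cell, *Dnmt3a* stayed higher and *Tet1* lower.

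The lists of other genes in the pathway place the 8 genes among their partners. In germ-like against non-dividing somatic cells, 4 of 8 maintenance genes were higher and none lower: *Hells* (263.0 against 29.9 CPM), *Ehmt2*, a histone H3 lysine 9 methyltransferase (136.0 against 46.9), *Lig1*, the replicative DNA ligase (129.3 against 36.2), and *Dmap1*, a DNMT1-associated protein (66.9 against 28.1). The median log2 ratio of all 8 was 0.94, against -0.36 over all genes tested, of which 19.6% were higher and 33.6% lower. *Hells* stayed higher in germ-like cells against dividing somatic cells too, with 122.2 CPM in the latter, unlike *Uhrf1*. Dividing somatic cells were higher than non-dividing ones in 3 of the 8, *Lig1*, *Hells* and *Cdca7*, the partner of HELLS, where 4.89% of all genes were higher.

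Of the 9 genes of de novo methylation and chromatin cues, 5 were higher in germ-like than in non-dividing somatic cells and none was lower. They included *Kdm1a*, a histone H3 lysine 4 demethylase (207.3 against 88.0 CPM), its relative *Kdm1b* (17.2 against 3.31), *Nsd2*, which methylates lysine 36 of histone H3 (60.9 against 29.3), and *Morc1* (69.3 against 0.236). The fifth was *Spocd1*, at 6.60 against 0.284 CPM. In the methyl-CpG and CXXC binding list, *Kdm2b* was higher (64.4 against 25.5 CPM) and *Cxxc5* and *Zbtb4* lower (22.9 against 103.4 and 0.589 against 13.7 CPM), of 12 genes. For both lists, the shares over all genes were 19.6% higher and 33.6% lower.

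Genes downstream of TET oxidation were called in both directions, with a median log2 ratio of 0.20. Of 15 tested, 5 were higher in germ-like than in non-dividing somatic cells, among them the base excision repair genes *Apex1* (328.1 against 113.1 CPM), *Parp1* (263.6 against 93.7) and *Xrcc1* (68.5 against 22.7) and the glycosylase *Neil2* (11.1 against 1.09). Another 4 were lower, among them *Tdg*, the glycosylase that removes oxidized methylcytosine (12.0 against 35.6 CPM), and *Gadd45g* (1.18 against 79.5 CPM). *Gadd45a* (2.12 against 14.0 CPM) and *Neil1* (0.825 against 3.88 CPM) completed them. Over all genes 19.6% were higher and 33.6% lower. Against dividing somatic cells, 3 of the 15 were higher and 5 lower, where 17.0% of all genes were higher and 34.1% lower.

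Of the 4 genes that protect methylation, *Dppa3*, which shields methylation in the zygote and marks germ cells, was higher (2184 against 6.24 CPM), as was the corepressor *Trim28* (309.8 against 131.4 CPM). *Zfp57*, the zinc finger protein that guards imprints, was lower, at 0.943 against 28.7 CPM. Among 14 genes of methyl donor supply, *Mtr*, *Shmt1*, *Shmt2* and *Mthfd1* were higher, with *Mtr*, methionine synthase, at 89.2 against 21.7 CPM, and *Ahcy* was lower, at 1.89 against 4.21 CPM. The median log2 ratio of this list was 0.32. As before, 19.6% of all genes were higher in germ-like than in non-dividing somatic cells and 33.6% lower.

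Likeness of pattern was measured as Pearson's r of log2(CPM + 5) over 20 groups of class and phase call, among 10332 genes, as a description without a test, since the groups share 1 library. The closest genes were *Lig1* (0.94), *Rad54l* (0.93) and *Wdhd1* (0.93) for *Dnmt1*, and *Ncapg2* (0.94), *Tyms* (0.93) and *Chaf1a* (0.93) for *Uhrf1*. For *Dnmt3l* they were *Fthl17c*, *Mbl2* and *Mageb4*, whose r of 0.998 each rests on 2 germ-like groups against the other 18, and for *Tet3* *Ckap4* (0.94), *Crtc3* (0.93) and *Usf2* (0.93). *Tet2* was closest to *Satb1* (0.90), *Lima1* (0.88) and *Dlg4* (0.87), and *Tet1* to *Eif3k* (0.87), *Ankrd12* (0.87) and *Brwd1* (0.85). *Dnmt3a* and *Dnmt3b* had less close matches, led by *Wdr86* (0.84) and *Usp6nl* (0.79). Among the 8 genes themselves, *Dnmt1* and *Uhrf1* were the most alike pair (0.80), and *Dnmt3l* and *Tet3* the most opposed (-0.87), a value that likewise rests on the 2 germ-like groups.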

How the data were processed

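The deposited values are raw UMI counts for each gene in each barcode. The authors ran Cell Ranger on 10x Genomics 3' v3 reads, against mm10 with a YFP sequence added. The deposited counts are not normalized, whereas the authors normalized them in Seurat for their own work. The submitters' processing notes name Cell Ranger 3.0.2 and 3.1.0, and the study's methods name another version. The 8 genes, the lists and the comparisons were chosen with earlier results of these data known.

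Barcodes had at least 200 genes. Of 5049 barcodes, 204 were removed as doublets by their share of artificial doublets among nearest neighbours, at an expected rate of 4.04%, and 1028 as outliers beyond 3 median absolute deviations of UMI or gene number (log scale) or of the mitochondrial or ribosomal-protein share. The kept cells had 2260 to 53807 UMIs, with a median of 12078. Clusters were made in R 4.3.3 (Seurat 5.3.0, sctransform 0.4.2) without the 8 genes, at resolution 0.8 on 30 components of 3000 variable genes, after regression on mitochondrial share and cell-cycle scores. A name needed a mean log2 ratio of its markers of at least 1 (5 CPM added), with at least 3 markers in 25% of the cells. No other class could have more markers among the leading genes of the cluster. A cluster whose cells held few UMIs also needed a marker of its own class there. By these rules 355 cells in 3 clusters stayed unnamed and out of the somatic cells. Erythroid-like cells were also left out of the somatic cells. No cluster was named for the rete testis.

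Cell-cycle scores (scanpy 1.11.5) were made on cells thinned to 5000 UMIs, without the 8 genes, *Hells* and *Cdca7*. Intervals were exact Poisson for levels, conditional binomial for ratios and Clopper-Pearson for shares (scipy 1.17.1), at 95%. Samples were not compared, as there was 1. The calls of all 8 genes are reported in each comparison, except *Dnmt3l* where its own UMIs divided the cells or, between the somatic groups, were too few. Of each list, up to 4 called genes each way with the most UMIs are named. For likeness, the 3 genes with the highest r were taken among those with at least 300 UMIs, over groups of at least 20 cells. The call rule was tested on simulated Poisson counts, the model that its intervals assume. Variance beyond Poisson, as seen among germ-like cells, was not simulated. Another 16 settings changed filters, doublet rate, resolution, normalization, classing, thinning depth, phase rule, scaling, weights and the fold limit, and 3 were added after the data were seen. Gene positions came from GENCODE on GRCm38 and promoter windows from RefSeq. Protein sequences were not used here.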

Additional observations from a re-analysis of the deposited data

Results flagged for a closer look

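Data outside the comparisons also held UMIs of the 8 genes above the limit that a count of 0 allows. An unnamed cluster of 202 cells at depth, all with an S or G2/M call, was led by histone genes and nearest to interstitial-like cells. It held *Dnmt1* at 137.5 CPM and *Uhrf1* at 97.8 CPM. Both levels were above those of the dividing somatic cells. The barcodes with fewer than 200 genes held *Dnmt1* at 3.55 CPM (1.15 to 8.28) and *Dnmt3a* at 4.26 CPM (1.56 to 9.26). Those barcodes averaged 3790 UMIs, of which 88.5% came from 10 genes, against 10.1% in the kept cells, so they do not measure free RNA.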

How the results depend on the processing

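Of 114 counts of called genes over 6 comparisons and 19 alternatives, 105 stayed within 1.5 times the reported count. A count within this limit can still lose or gain called genes. With no outlier filter, germ-like G1 against non-dividing somatic cells kept its count but lost *Dnmt1* and gained *Uhrf1* as lower. No called gene turned direction under any of the 19 alternatives. Between germ-like cells in S or G2/M and in G1, the count went from 0 to 1, *Uhrf1*, with an outlier limit of 5 deviations, no outlier filter, no doublet removal, 3000 UMIs per cell, germ-like cells scored apart, and UMIs per cell, and to 4 with terciles of the division-gene share. Counted as UMIs per cell, 8 genes were called between germ-like and non-dividing somatic cells and 7 between germ-like G1 and non-dividing somatic cells, where 52.1% and 38.9% of all genes were higher and 15.5% and 7.36% lower. In these cases the cause was not tested. Over the alternatives, the log2 ratio of germ-like to dividing somatic cells ran from -2.64 to -1.21 for *Uhrf1*, from 1.94 to 3.26 for *Tet1* and from -3.16 to -1.67 for *Tet3*. That of *Uhrf1* in dividing against non-dividing somatic cells ran from 2.65 to 4.24. In the division by *Dnmt3l* UMIs, that of *Dnmt3a* ran from 1.29 to 1.76 and that of *Tet1* from -1.89 to -1.47. With unnamed clusters counted as somatic, no call changed. The levels of somatic cells in S and in G2/M were not among these calls. No paired analysis was possible because there was 1 library. In the 20 germ-like G1 cells, *Uhrf1* rested on 3 UMIs in the reported comparison, and its interval overlapped that of the other germ-like cells.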
